A study of Mus musculus with 49 samples.

Results

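Genes of mast cells, basophils and eosinophils were followed through normal mouse blood stem and progenitor cells and the leukaemias started from them. The set held 9 genes of the 38253 in the table, taken by symbol: Fcer1a and Ms4a2 for the IgE receptor, Hdc for histamine synthesis, the granule proteases Cpa3, Mcpt8, Prss34 and Gzmb, and the eosinophil granule genes Epx and Prg2. Their expression was reported as FPKM, a fragment count scaled by transcript length and by the library's mapped fragments, so that levels of different genes are compared per length. The comparisons ask at which step of normal development these genes are on, and how far a leukaemia keeps the state of the cell in which it began.

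Mast cells, basophils and eosinophils are granule-bearing cells of allergy and defence against parasites. Mast cells and basophils bind IgE through a receptor made of an alpha chain (Fcer1a), a beta chain (Ms4a2) and a shared gamma chain (Fcer1g), and crosslinking of bound IgE releases histamine and proteases from their granules. The GATA factors Gata1 and Gata2 act in all 3 lineages, and single genes of these lineages can be transcribed in progenitors that have not yet committed to them, which is called lineage priming.

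An age of 6 to 12 weeks was given for the mice of all 49 samples, leukaemias included. The 30 normal samples came from bone marrow of C57BL/6J wild-type mice, and had been sorted by surface markers. They were stem cells with long-term (LT-HSC, n = 5) and short-term (ST-HSC, n = 5) repopulating activity, the multipotent progenitors below them (MPP, n = 6), and 3 kinds of committed progenitor, the common myeloid (CMP, n = 5), the one for granulocytes and macrophages (GMP, n = 5) and the one for megakaryocytes and erythrocytes (MEP, n = 4). The 19 leukaemias carried the MLL-AF9 (MA9) fusion and a GFP reporter, delivered by retrovirus to sorted cells of the same strain, which were then given to sublethally irradiated mice. They are named for the cell transduced, and 6 leukaemias were MPP:MA9, 6 were GMP:MA9, 4 were CMP:MA9 and 3 were STHSC:MA9. Each was a bulk of GFP+ cells from 1 mouse, taken from the spleen according to the methods of the study, although the labels name bone marrow, so the leukaemias and normal cells may also differ by organ. Normal cells were depleted with antibodies to CD3e, CD11b, B220, Gr-1 and Ter-119, stained again for lineage markers and gated on c-Kit, and of these antigens CD11b is carried by mouse eosinophils and basophils. In bulk samples, fewer cells of a type and less RNA per cell cannot be told apart.

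A sample had 15282 to 17852 genes above 0. Depth relative to the median sample ran from 0.495 to 1.53, with LT-HSC between 0.495 and 0.774, ST-HSC between 0.546 and 0.766, MEP between 0.619 and 0.696 and CMP between 0.790 and 1.53. The gate markers followed the labels in part: Ly6a (Sca-1) was between 47.07 and 147.27 FPKM in LT-HSC, ST-HSC and MPP and at most 9.74 in CMP, GMP and MEP, and Fcgr3 was at least 129.61 in GMP and at most 9.98 in CMP. Slamf1 (CD150), by which MPP, CMP and GMP were gated negative, was between 2.19 and 3.99 FPKM in CMP, at most 0.3 in MPP and at most 0.2 in GMP. Some libraries stood apart. The summed level of 5 late granulocyte genes (S100a8, S100a9, Ltf, Camp, Ngp) was 61823 and 26024 FPKM in LT-HSC replicates 4 and 5 against 18.97 to 37.99 in replicates 1 to 3, and 36251 and 7273 in ST-HSC replicates 4 and 5 against 42.07 to 1093 in the other ST-HSC. Comparisons of LT-HSC or ST-HSC with another group are therefore given with and without replicates 4 and 5. The F tests and correlations are given with them only.

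The name of the set was checked against genes of the mature cells. The mast cell proteases Tpsab1, Mcpt1 and Mcpt9 were listed at 0 in all 49 samples, Tpsb2 and Mcpt4 had group means of at most 1.43 and 1.00 FPKM, both in MPP, and the chymase Cma1 reached 6.62 FPKM at most. The cytokine gene Il13 did not exceed a group mean of 0.02 FPKM, nor the eosinophil receptors Il5ra and Ccr3 group means of 0.91 and 1.79 FPKM. Ccr3 was uneven within LT-HSC, where replicates 4 and 5 lay above the others, as given below. Not all genes of the mature cells were low. The eosinophil granule gene Prg3 reached 53.77 FPKM in MPP (median 7.44) and 37.24 in GMP (median 18.78). The eosinophil ribonuclease Ear6 reached 177.45 FPKM in LT-HSC, where its median was 0.24. No sample of the series was sorted as one of the mature cells.

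The stretches of 250 bases before the transcription start are shown for 5 of the genes, because 3 of them (Prss34, Epx and Fcer1a) were low in CMP and 2 (Cpa3 and Ms4a2) were not. They are RefSeq sequences of GRCm38.p6, 5′ to 3′ in the direction of the gene, and capitals mark GATAA or its reverse complement TTATC, the core bound by GATA factors. They lie at chr17:25298144-25298393 on the plus strand for Prss34, and on the minus strand at chr11:87875537-87875786 for Epx, chr1:173227230-173227479 for Fcer1a, chr3:20242182-20242431 for Cpa3 and chr19:11623720-11623969 for Ms4a2.
Prss34: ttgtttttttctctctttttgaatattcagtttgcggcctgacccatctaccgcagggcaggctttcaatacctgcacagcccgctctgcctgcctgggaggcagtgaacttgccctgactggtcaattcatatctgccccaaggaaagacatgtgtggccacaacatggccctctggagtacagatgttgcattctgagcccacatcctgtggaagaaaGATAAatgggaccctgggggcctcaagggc
Epx: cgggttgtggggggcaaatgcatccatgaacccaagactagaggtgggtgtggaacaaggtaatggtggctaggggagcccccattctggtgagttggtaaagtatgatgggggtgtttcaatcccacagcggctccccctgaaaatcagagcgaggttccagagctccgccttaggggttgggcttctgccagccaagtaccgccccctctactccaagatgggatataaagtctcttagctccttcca
Fcer1a: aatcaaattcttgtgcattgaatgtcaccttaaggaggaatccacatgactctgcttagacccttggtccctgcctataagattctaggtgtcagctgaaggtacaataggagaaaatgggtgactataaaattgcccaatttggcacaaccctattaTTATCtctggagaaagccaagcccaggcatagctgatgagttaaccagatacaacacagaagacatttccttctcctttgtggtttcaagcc
Cpa3: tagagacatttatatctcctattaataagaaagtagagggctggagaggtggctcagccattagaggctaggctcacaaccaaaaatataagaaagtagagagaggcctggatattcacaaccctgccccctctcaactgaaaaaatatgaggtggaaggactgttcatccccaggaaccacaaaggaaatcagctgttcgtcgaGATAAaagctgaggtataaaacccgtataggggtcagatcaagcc
Ms4a2: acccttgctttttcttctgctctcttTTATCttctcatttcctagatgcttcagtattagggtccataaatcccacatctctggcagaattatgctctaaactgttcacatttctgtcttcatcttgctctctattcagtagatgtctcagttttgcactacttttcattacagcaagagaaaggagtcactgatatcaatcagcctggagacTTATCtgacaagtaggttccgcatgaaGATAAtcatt
The motif occurred 3 times for Ms4a2, once each for Prss34, Fcer1a and Cpa3, and not in the Epx window. The nearest base of the match lay 26 bases before the start for Prss34, 41 for Cpa3, 88 for Fcer1a, and 6, 33 and 220 for the matches of Ms4a2. Of the 8 members with a sequence in the reference tables (all but Prg2), 4 held the motif on either strand, and so did 22.6% of all 32851 windows of this length. The other motif searched, TGTGGT or ACCACA, bound by RUNX factors, was in 4 of the 8 (Fcer1a, Cpa3, Mcpt8 and Gzmb) and in 14.0% of all windows. No match of one overlapped a match of the other, and a match is a description of the letters only.

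**Figure D1:**
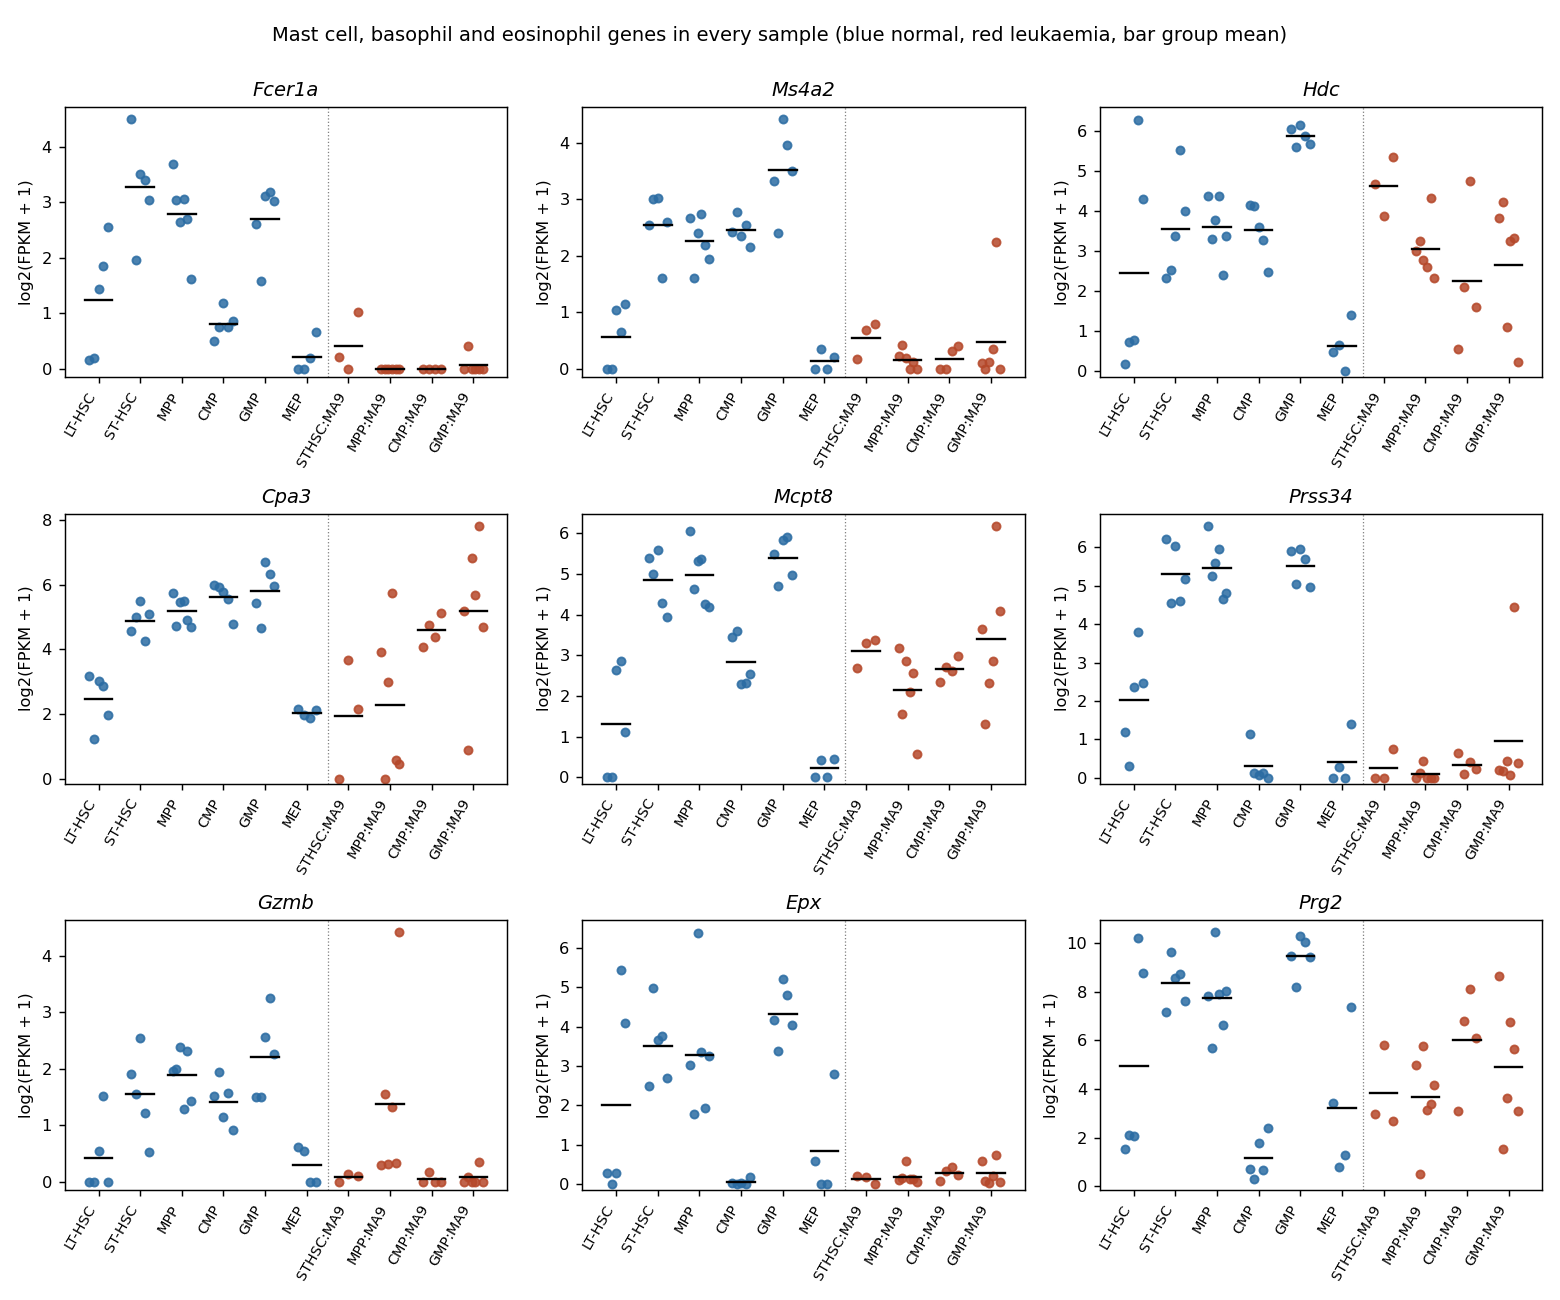
Expression of the 9 genes in all 49 samples, as log2(FPKM + 1) on the y axis, by group on the x axis (blue normal, red leukaemia, 1 point a sample, black bar the group mean). Prss34, Epx and Prg2 are high in ST-HSC, MPP and GMP and low in CMP and MEP, whereas Cpa3 and Ms4a2 in CMP lie at the level of MPP.

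The alpha chain gene Fcer1a (ENSMUSG00000005339, chr1:175151402-175157360, minus strand, NCBIM37) was on in ST-HSC, MPP and GMP. It read 21.57, 2.89, 10.36, 9.56 and 7.26 FPKM in the 5 ST-HSC samples, from 2.06 to 11.94 with a median of 6.36 in the 6 MPP, and 5.13, 1.98, 7.71, 8.17 and 7.16 in GMP. CMP were at 0.41, 0.69, 1.28, 0.68 and 0.82 FPKM. Every CMP sample was therefore below every MPP and every GMP sample. LT-HSC gave 0.11, 0.15, 1.72, 2.63 and 4.87, and MEP 0, 0, 0.14 and 0.58 FPKM. In leukaemia the gene was listed at 0 in 16 of 19 samples, the exceptions being STHSC:MA9 replicates 1 (0.16) and 3 (1.03) and GMP:MA9 replicate 2 (0.33).

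The beta chain gene Ms4a2 (ENSMUSG00000024680, chr19:11690013-11698209, minus strand) differed from the alpha chain in CMP. Its 5 CMP values were 4.33, 5.83, 4.12, 4.87 and 3.45 FPKM, inside the range of the MPP (2.03 to 5.72, median 3.92) but for 1 sample. ST-HSC read 4.81, 7.02, 7.1, 2.04 and 5.05, and GMP was highest, at 9.04, 4.3, 20.34, 14.52 and 10.28 FPKM. LT-HSC were at 0, 0, 1.06, 0.57 and 1.22 and MEP at 0, 0.28, 0 and 0.15. CMP thus held the beta chain transcript with little of the alpha chain transcript. Among leukaemias 18 of 19 were at or below 0.74 FPKM, and GMP:MA9 replicate 5 was at 3.71.

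Hdc, histidine decarboxylase (ENSMUSG00000027360, chr2:126419403-126445035, minus strand), which makes histamine and is also transcribed in immature granulocytic cells, was above 0 in all 19 leukaemias. GMP gave 65.4, 47.61, 69.93, 57.88 and 50.21 FPKM, above every CMP (16.77, 16.44, 11.19, 8.76 and 4.56) and every MPP (4.3 to 19.67, median 11.1). MEP were at 0.38, 0.56, 0 and 1.66. LT-HSC split by library, with 0.13, 0.64 and 0.72 in replicates 1 to 3 and 76.93 and 18.85 in replicates 4 and 5, the samples high in late granulocyte genes, and the ST-HSC values 4.01, 4.79, 9.34, 44.93 and 14.89 showed the same pair on top. STHSC:MA9 read 24.43, 13.66 and 39.56, MPP:MA9 from 4.01 to 19.06 with a median of 6.46, CMP:MA9 0.47, 3.29, 26.01 and 2.01, and GMP:MA9 from 0.17 to 17.56 with a median of 8.76 FPKM.

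Cpa3, the carboxypeptidase of mast cell granules (ENSMUSG00000001865, chr3:20115516-20142080, minus strand), was high in 4 normal groups. It read 22.64, 31.1, 44.03, 18.37 and 33.11 FPKM in ST-HSC, from 25.15 to 52.85 with a median of 36.3 in MPP, 62.15, 59.6, 54.37, 46.67 and 26.85 in CMP, and 42.12, 24.52, 102.92, 79.74 and 61.4 in GMP. These 4 groups overlapped. LT-HSC (8, 1.36, 7.19, 6.24 and 2.94) and MEP (3.49, 2.96, 2.65 and 3.32) lay below all of them. Leukaemias ranged widely: STHSC:MA9 were at 0, 11.65 and 3.44, MPP:MA9 at 14.09, 0, 6.96, 52.76, 0.5 and 0.36, CMP:MA9 at 15.99, 26.3, 19.84 and 33.8, and GMP:MA9 at 35.83, 0.87, 112.59, 50.59, 224.61 and 25.18 FPKM.

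Mcpt8, a protease of basophil granules (ENSMUSG00000022157, chr14:56701003-56704053, minus strand), was reduced but not lost in CMP, at 9.94, 11.03, 3.9, 4.02 and 4.79 FPKM. ST-HSC gave 41.32, 30.8, 47.58, 18.37 and 14.51, MPP from 17.37 to 65.07 with a median of 31.5, and GMP 43.63, 25.17, 56.51, 59.39 and 30.7, all above every CMP. LT-HSC were at 0, 0, 5.27, 6.3 and 1.15 and MEP at 0, 0.35, 0 and 0.37. All 19 leukaemias were above 0. STHSC:MA9 read 5.42, 8.82 and 9.33, MPP:MA9 from 0.5 to 8.02 with a median of 4.08, CMP:MA9 4.11, 5.59, 5.09 and 6.86, and GMP:MA9 from 1.47 to 71.43 with a median of 8.90.

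Prss34, a serine protease of basophils and mast cells (ENSMUSG00000056399, chr17:25435339-25437106, plus strand), was near 0 in CMP. ST-HSC read 73.35, 22.23, 64.18, 23.1 and 34.92 FPKM, MPP from 23.95 to 92.78 with a median of 42.2, and GMP 58.65, 31.78, 61.28, 51.24 and 30.1. CMP were at 1.2, 0.09, 0.06, 0.09 and 0, and MEP at 0, 0.22, 0 and 1.64. Relative depth was 0.790 to 1.53 in CMP, against 0.546 to 0.766 in ST-HSC, 1.14 to 1.38 in MPP and 0.848 to 1.52 in GMP. The part of depth in the low values was not tested. LT-HSC gave 1.3, 0.24, 4.18, 12.86 and 4.51, and 18 of 19 leukaemias were at or below 0.67 FPKM, with 20.92 in GMP:MA9 replicate 5.

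Gzmb, granzyme B (ENSMUSG00000015437, chr14:56877693-56881097, minus strand), is best known from cytotoxic lymphocytes and is included here as a protease also found in mast cells and basophils. By group mean it was the lowest protease of the set in LT-HSC, ST-HSC, MPP and GMP, whereas Prss34 was lower in CMP (0.288 against 1.746 FPKM). Of the 31-base windows of Gzmb, 1.37% are shared with Gzmc. Levels were 2.75, 1.94, 4.81, 1.33 and 0.44 FPKM in ST-HSC, 1.44 to 4.18 with a median of 2.94 in MPP, 1.87, 2.82, 1.2, 1.97 and 0.87 in CMP, and 1.82, 1.81, 4.9, 8.49 and 3.79 in GMP. LT-HSC (0, 0, 0.46, 1.86 and 0) and MEP (0.53, 0.46, 0 and 0) were lower. Of the leukaemias, STHSC:MA9, CMP:MA9 and GMP:MA9 did not exceed 0.27, and MPP:MA9 read 0.22, 1.92, 0.24, 1.48, 0.26 and 20.24. MPP:MA9 replicate 6, the highest, was also the highest leukaemia for the cytotoxic lymphocyte and NK cell genes Gzma (20.35 FPKM), Klrb1c (4.03), Prf1 (1.3) and Nkg7 (23.5, a gene also high in normal GMP), which in the other 5 MPP:MA9 did not exceed 1.75, 0.89, 0.24 and 12.51. The T cell genes of that list, Cd3e and Cd8a, were at 0.26 and 0 FPKM in replicate 6, within the ranges of the other MPP:MA9 (0.06 to 1.16 and 0 to 0.14). The part of such cells in its Gzmb value was not tested.

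The eosinophil genes varied widely between mice of a group. Epx, eosinophil peroxidase (ENSMUSG00000052234, chr11:87677502-87689038, minus strand), read 4.63, 30.34, 11.59, 12.65 and 5.45 FPKM in ST-HSC, 7.14, 2.43, 82.74, 9.14, 2.8 and 8.47 in MPP and 17.11, 9.33, 35.72, 26.9 and 15.49 in GMP. CMP were at 0.02, 0, 0.02, 0 and 0.13. LT-HSC were at 0.21, 0 and 0.22 in replicates 1 to 3 and at 42.02 and 15.91 in replicates 4 and 5, and MEP at 0.51, 0, 0 and 5.97. No leukaemia exceeded 0.66 FPKM.

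Prg2, the eosinophil major basic protein (ENSMUSG00000027073, chr2:84820618-84823789, plus strand), had the highest level of the 9. It read 145.11, 796.25, 376.63, 428.92 and 198.47 FPKM in ST-HSC, 224.58, 50.11, 1396.41, 236.77, 99.69 and 263.37 in MPP and 711.27, 291.17, 1260.19, 1059.19 and 693.57 in GMP. CMP were at 0.62, 0.23, 2.42, 0.59 and 4.21. LT-HSC again split into 1.94, 3.3 and 3.16 against 1188.02 and 442.47, and MEP into 9.84, 0.72 and 1.41 against 165.76 in replicate 4, which also had the highest late granulocyte sum of the MEP (2986 FPKM). MPP replicate 3 and ST-HSC replicate 2, the highest of their groups for Prg2 and Epx, had late granulocyte sums of 102.9 and 93.38 FPKM, inside the range of the other samples of their groups. In leukaemia Prg2 ran from 0.43 to 399.59 FPKM: STHSC:MA9 were at 6.81, 55.35 and 5.4, MPP:MA9 at 30.37, 0.43, 54.14, 7.85, 9.43 and 16.79, CMP:MA9 at 7.64, 110.7, 274.97 and 66.73, and GMP:MA9 at 399.59, 1.94, 11.28, 105.82, 49.82 and 7.68.

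Differences between normal populations were tested with limma on log2(FPKM + 1), and a gene was called at a Benjamini-Hochberg adjusted p below 0.05 over all genes tested and an absolute log2 difference above 1. A difference on this scale understates the change of low genes. All 9 members passed the filter of a mean of 1 FPKM, and all 9 differed among the 6 groups by the F test, as did 78.4% of 12367 genes. Group means were below 1 FPKM for Prss34, Epx and Fcer1a in CMP, and for Ms4a2 and Gzmb in LT-HSC. In MEP they were so for Fcer1a, Ms4a2, Hdc, Mcpt8, Prss34 and Gzmb. These genes passed the filter through other groups, so a lower value there follows in part from the filter. Their p values and the counts of members called in these comparisons are given as a description. From LT-HSC to ST-HSC 6 members were higher in ST-HSC, where 1.5% of all genes were called in that direction, and the median difference (LT-HSC minus ST-HSC) was -2.04 against -0.12 over all genes. Mcpt8 had the largest called difference, at -3.52 (SE 0.47, adjusted p = 3.52e-05), then Prss34 (-3.28), Cpa3 (-2.43), Fcer1a (-2.04), Ms4a2 (-1.98) and Gzmb (-1.14). All LT-HSC samples lay below all ST-HSC samples for Mcpt8, Prss34, Cpa3 and Ms4a2, and the groups overlapped for Fcer1a and Gzmb. Non-overlap was counted for the members only, not over all genes, here and in every later comparison, so it is a description. Prg2 (-3.41, adjusted p = 0.106), Epx (-1.50, adjusted p = 0.306) and Hdc (-1.09, adjusted p = 0.429) were not called. Without replicates 4 and 5 of both groups all 9 were called lower in LT-HSC, with Prg2 at -6.56 (adjusted p = 0.000565), Epx at -3.52 (0.00653) and Hdc at -2.19 (0.00189). Leaving out LT-HSC replicate 4 alone was enough to call Prg2 (-4.73, 0.0104) and Hdc (-2.05, 0.0356), and leaving out LT-HSC replicate 5 to call Prg2 (-4.37, 0.0346). Same-numbered LT-HSC and ST-HSC samples deviated together, and with the replicate number as a block Gzmb missed the threshold (adjusted p = 0.0559), so that 5 of 9 were called. Gzmb was also lost without any 1 of LT-HSC replicates 1, 2 and 5 and ST-HSC replicates 1, 2 and 3 (adjusted p = 0.0714 to 0.156). Fcer1a lost its call with sample weights (adjusted p = 0.0820) and with only the groups compared (0.125), and so did Gzmb.

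Between ST-HSC and MPP 0 of 9 members were called by limma, against 3.44% of all genes in either direction. Without replicates 4 and 5 of LT-HSC and ST-HSC 0 of 9 were called as well, where 630 of 12262 genes were called. With all samples no member reached an unadjusted p below 0.05, and the differences ran from -0.34 for Gzmb to 0.60 for Prg2 (SE 1.26). The SEs of Hdc (0.74), Epx (0.82) and Prg2 were the widest, so differences of the size of the threshold would not have been detected for them. For the other members the SEs ran from 0.29 (Ms4a2) to 0.45 (Mcpt8), and such differences could have been missed there too.

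Between MPP and CMP the set divided. In MPP 5 members were higher than in CMP, where 2.83% of all genes were called in that direction: Prg2 by 6.59 (SE 1.26, adjusted p = 0.00053), Prss34 by 5.17 (SE 0.45, 1.12e-08), Epx by 3.24 (0.00755), Mcpt8 by 2.13 (0.0016) and Fcer1a by 1.98 (0.00135). For each of the 5 every MPP sample lay above every CMP sample. The other 4 gave differences (MPP minus CMP) of -0.43 for Cpa3 (SE 0.33), -0.19 for Ms4a2 (SE 0.29), 0.07 for Hdc (SE 0.74) and 0.48 for Gzmb (SE 0.34), none called. The median over the 9 was 1.98 against -0.03 over all genes, and the 5 calls held without any 1 sample of either group.

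From CMP to GMP 7 members were higher in GMP, where 3.31% of all genes were called in that direction. The differences (CMP minus GMP) were -8.33 for Prg2 (SE 1.31, adjusted p = 1.21e-05), -5.22 for Prss34 (1.75e-09), -4.27 for Epx (0.000262), -2.55 for Mcpt8 (0.000101), -2.34 for Hdc (0.0185), -1.90 for Fcer1a (0.000949) and -1.07 for Ms4a2 (0.00705). All CMP lay below all GMP samples except for Ms4a2. Cpa3 (-0.21, adjusted p = 0.686) and Gzmb (-0.80, adjusted p = 0.0817) were not called. Ms4a2 fell under the fold threshold without CMP replicate 5 (-0.996), GMP replicate 3 (-0.85) or GMP replicate 4 (-0.96), and Hdc lost its call without CMP replicate 5 (adjusted p = 0.0531). The CMP samples are shared by this comparison and that with MPP.

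MEP were at most 5.97 FPKM for every member except Prg2 in replicates 1 and 4. Against CMP 5 members were higher in CMP, where 9.49% of all genes were called in that direction: Cpa3 by 3.58 (SE 0.37, adjusted p = 1.6e-08), Hdc by 2.90, Mcpt8 by 2.62, Ms4a2 by 2.31 and Gzmb by 1.12, with no overlap between the groups. Gzmb was lost without CMP replicate 2, MEP replicate 3 or MEP replicate 4 (adjusted p = 0.0676 to 0.0724). Prg2 (-2.05, adjusted p = 0.278), Epx (-0.80), Prss34 (-0.13) and Fcer1a (0.60) were not called, the highest values of Prg2 and Epx in either group being those of MEP replicate 4. Against GMP all 9 members were higher in GMP, with no overlap, where 11.2% of all genes were called in that direction, from 1.92 for Gzmb (SE 0.38) to 6.27 for Prg2 (SE 1.39, adjusted p = 0.000455).

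**Figure D2:**
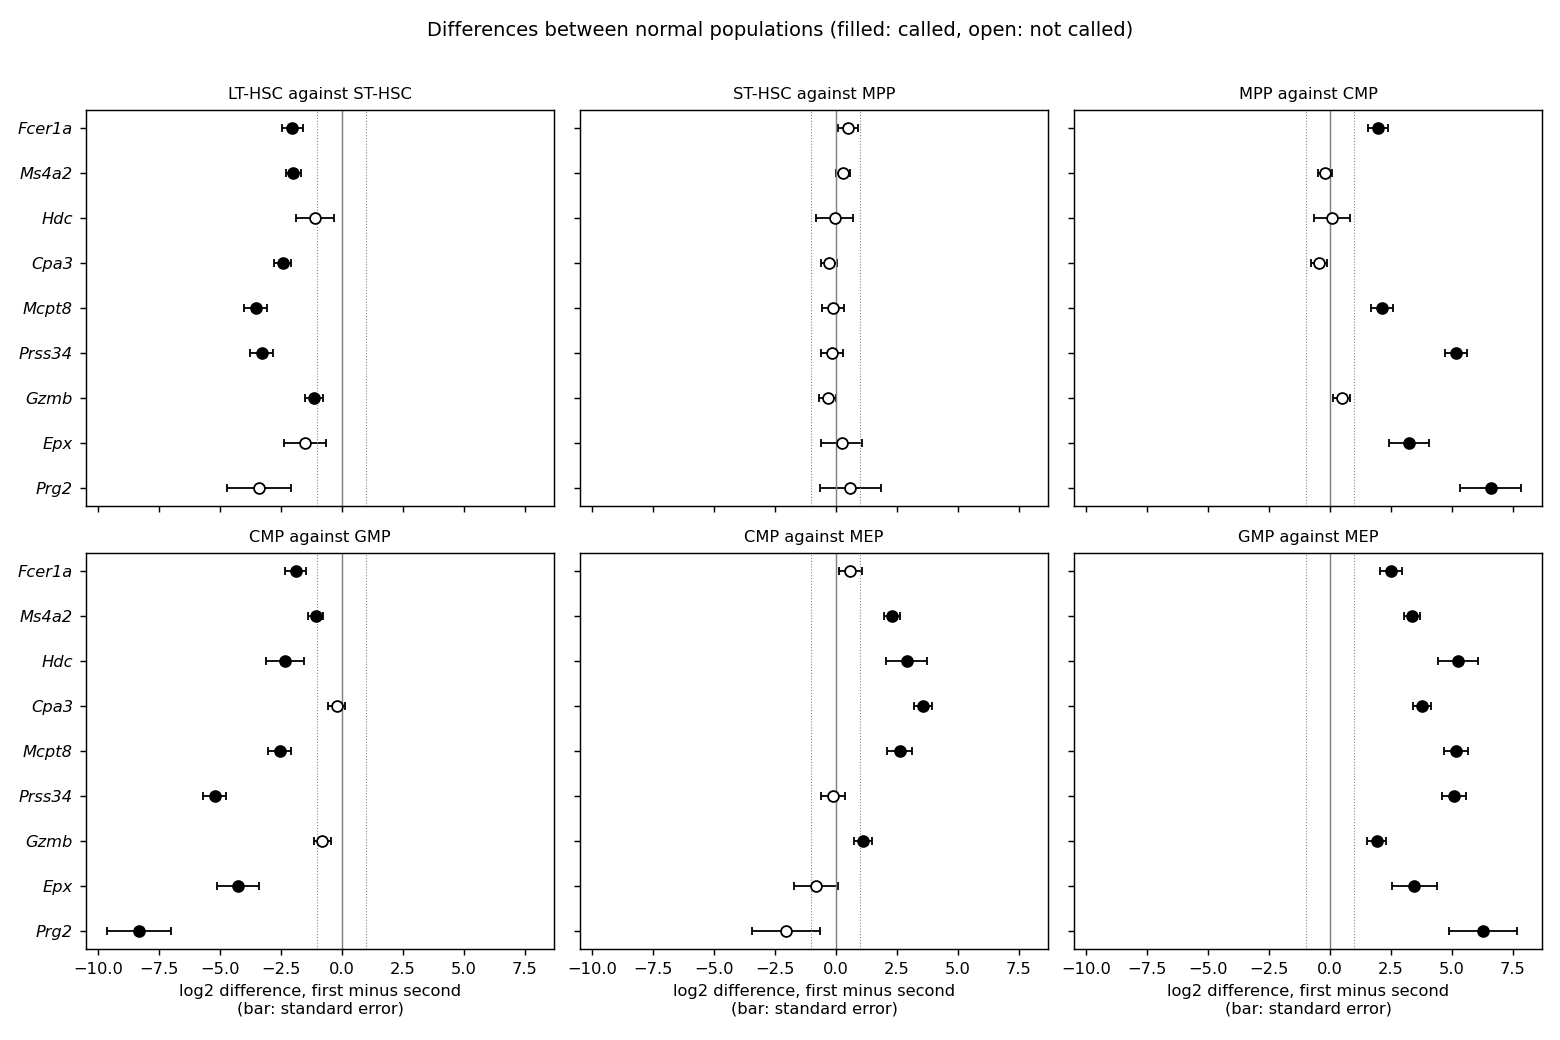
Differences of the 9 genes in 6 comparisons of normal populations, as log2(FPKM + 1) of the first minus the second group (bars are standard errors, filled points are called, dotted lines mark a difference of 1). The points of Prss34, Epx and Prg2 lie far to the right for MPP against CMP and far to the left for CMP against GMP, and those of Cpa3 near 0 in both.

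Each leukaemia group was compared with its normal cell of origin in 1 fit of 40 samples. All 9 members passed the filter, Fcer1a, Ms4a2 and Epx only through the normal groups. Over the leukaemias alone Prss34 reached it only through GMP:MA9 replicate 5, and Gzmb only through MPP:MA9 replicate 6. For all these genes a lower value in leukaemia follows in part from the filter. Their adjusted p values and the counts of members lower are given as a description. In STHSC:MA9 8 members were lower than in ST-HSC, where 11.9% of all genes were called in that direction. The differences (leukaemia minus normal) were -5.06 for Prss34 (SE 0.58, adjusted p = 4.09e-09), -4.54 for Prg2 (SE 1.17, 0.00155), -3.39 for Epx (SE 0.56), -2.95 for Cpa3, -2.87 for Fcer1a, -2 for Ms4a2, -1.73 for Mcpt8 and -1.47 for Gzmb, and every leukaemia sample lay below every ST-HSC sample for the 8. Hdc was 1.08 higher (SE 0.75, adjusted p = 0.24), and without ST-HSC replicates 4 and 5 it was called higher at 1.89 (0.0477), with the other 8 called lower there too. Without STHSC:MA9 replicate 1 the count lower was 5, since Cpa3 (adjusted p = 0.159), Mcpt8 (0.0957) and Gzmb (0.0652) were lost. Without ST-HSC replicate 3 Mcpt8 (0.0537) and Gzmb (0.0684) were lost, and Gzmb also without STHSC:MA9 replicate 3 (0.0541).

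In MPP:MA9 7 members were lower than in MPP, where 13.6% of all genes were called in that direction. The differences were -5.37 for Prss34 (SE 0.46, adjusted p = 1.59e-12), -4.10 for Prg2, -3.09 for Epx, -2.90 for Cpa3, -2.83 for Mcpt8 and -2.10 for Ms4a2, and Fcer1a was listed at 0 in all 6 leukaemias (adjusted p = 2.11e-10). Cpa3 and Prg2 overlapped between the groups, through MPP:MA9 replicate 4 (52.76 FPKM) for Cpa3 and replicate 3 (54.14 FPKM) for Prg2, which lay above MPP replicate 2 (50.11). Hdc (-0.55, adjusted p = 0.427) and Gzmb (-0.52, adjusted p = 0.288) were not called. Without MPP:MA9 replicate 6, the sample high in cytotoxic lymphocyte genes, Gzmb was called lower (-1.13, adjusted p = 0.00138), which made 8.

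In the fit of all 40 samples, CMP:MA9 alone had a member called higher than in its normal cell, Hdc in STHSC:MA9 being called so only without ST-HSC replicates 4 and 5. Prg2 was 4.86 higher (SE 1.08, adjusted p = 0.00021), with every CMP:MA9 sample (7.64 to 274.97 FPKM) above every CMP sample (0.23 to 4.21), where 13% of all genes were called higher. Ms4a2 (-2.27, SE 0.35, adjusted p = 8.56e-07) and Gzmb (-1.37, SE 0.49, 0.0169) were lower, Gzmb not passing once a GC and length trend was removed (adjusted p = 0.0654), where 14.8% of all genes were called lower. Fcer1a was listed at 0 in all 4 leukaemias and between 0.41 and 1.28 in CMP, and it passed the p threshold (adjusted p = 0.0376) but not that of the fold. Hdc (-1.28, adjusted p = 0.107), Cpa3 (-1.02, 0.347), Mcpt8 (-0.18), Prss34 (0.05) and Epx (0.23) were not called. Without CMP:MA9 replicate 3, Hdc was called lower (-2.11, adjusted p = 0.00728), as it was with sample weights (-1.94, 0.00192). Cpa3 was called lower in a fit of only the groups compared (-1.02, adjusted p = 0.00633). The call of Prg2 held in all settings run, leaving out each sample included, and it stood beside a late granulocyte sum of 1103 to 27767 FPKM in CMP:MA9 against 17.18 to 213.5 in CMP. Within CMP:MA9, replicate 3 was highest for both Prg2 and that sum. In the other leukaemia groups the sample with the highest sum was not the one with the highest Prg2. These were STHSC:MA9 replicate 3 (sum 42648, Prg2 5.4 FPKM), MPP:MA9 replicate 2 (39494.5 and 0.43) and GMP:MA9 replicate 6 (13185.4 and 7.68). The part of granulocytic cells in the Prg2 of CMP:MA9 was not tested.

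In GMP:MA9 8 members were lower than in GMP, where 8.87% of all genes were called in that direction. The differences were -4.60 for Prg2 (SE 0.97, adjusted p = 0.000128), -4.55 for Prss34 (SE 0.48, 8.32e-10), -4.04 for Epx, -3.21 for Hdc, -3.06 for Ms4a2, -2.64 for Fcer1a, -2.14 for Gzmb and -1.99 for Mcpt8. The groups overlapped for Mcpt8 and Prg2 and not for the other 6. Cpa3 was not called (-0.63, SE 0.83, adjusted p = 0.54), and its leukaemias spread widely, with 2 above every GMP sample and 1 at 0.87 FPKM. The count stayed at 8 without any 1 sample. GMP:MA9 replicate 5 stood apart from the other 5 in several members at once, with the highest leukaemia value of Cpa3 (224.61), Mcpt8 (71.43), Prss34 (20.92) and Ms4a2 (3.71), and with the only Cma1 value above 0.09 among the 19 leukaemias (6.62 FPKM), while its Fcer1a was listed at 0 and its Prg2 was 49.82.

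**Figure D3:**
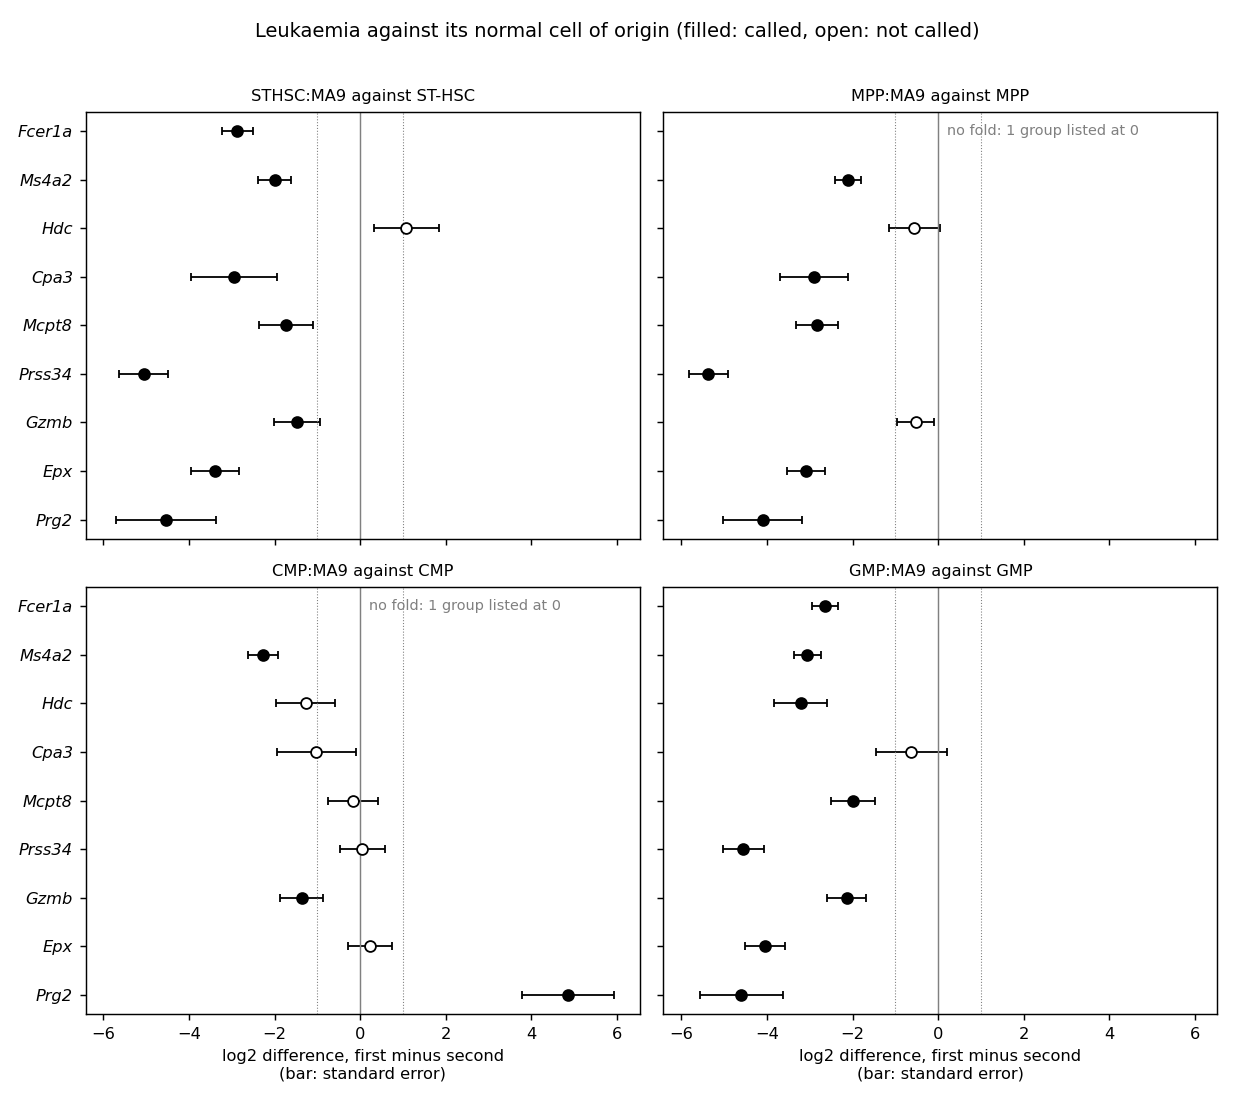
Differences of the 9 genes between each leukaemia and its normal cell of origin, as log2(FPKM + 1) of leukaemia minus normal (bars are standard errors, filled points are called, dotted lines mark a difference of 1, and no fold is drawn where all samples of 1 group were listed at 0). Prg2 lies between -4.60 and -4.10 for 3 origins and at 4.86 for CMP.

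Whether the change differed among the 4 origins was tested by an F test in the same fit. It passed for 6 members, against 38% of all genes: Prss34 (adjusted p = 4.51e-07), Prg2 (3.61e-06), Epx (3.95e-05), Fcer1a (0.00139), Hdc (0.0044) and Mcpt8 (0.0378). Cpa3 (0.218), Ms4a2 (0.178) and Gzmb (0.163) did not pass. Normal CMP were at or below 1.2 FPKM for Prss34, 0.13 for Epx and 1.28 for Fcer1a, so a large fall from CMP could not occur for these 3, and with Epx and Fcer1a filtered in through normal samples their F tests are a description of that floor. Prg2 was low in normal CMP as well, at most 4.21 FPKM, against at least 50.11 in normal ST-HSC, MPP and GMP.

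Among the leukaemias, too few members were expressed to test them all. Only 6 of 9 passed the filter over the 19 leukaemias, Prss34 through GMP:MA9 replicate 5 and Gzmb through MPP:MA9 replicate 6, and Fcer1a, Ms4a2 and Epx were too low to test. Of the 6, 0 were called in any of the 6 pairs of leukaemia groups by limma, where 2.88% of all genes were called in either direction between STHSC:MA9 and MPP:MA9, 2.23% between MPP:MA9 and GMP:MA9, and 0.115% to 0.536% in the other 4 pairs, and 0 passed the F test among the 4 groups, against 13.3% of all genes. At an unadjusted p below 0.05 Cpa3 was lower in STHSC:MA9 (-3.25, adjusted p = 0.192) and MPP:MA9 (-2.91, SE 1.06, 0.0686) than in GMP:MA9, and Hdc was higher in STHSC:MA9 than in CMP:MA9 (2.38) and GMP:MA9 (1.97). Gzmb in MPP:MA9 and Mcpt8 in GMP:MA9 against MPP:MA9 were the others at that level. Without GMP:MA9 replicate 2, Cpa3 (-3.77, adjusted p = 0.00909) and Mcpt8 (-1.68, 0.04) were called lower in MPP:MA9 than in GMP:MA9, and without MPP:MA9 replicate 4 Cpa3 was (-3.60, 0.0241).

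Where Prg2 or Cpa3 was high, most leukaemias held less of Epx or Ms4a2 than normal cells did. Limits of 100 FPKM for Prg2 and 20 FPKM for Cpa3 were chosen after the values were seen, and no test was made. All 17 normal samples with Prg2 above 100 FPKM had Epx between 4.63 and 82.74 FPKM, whereas the 4 leukaemias above it had Epx between 0.16 and 0.5. All 20 normal samples with Cpa3 above 20 FPKM had Ms4a2 between 2.03 and 20.34 with a median of 4.96, whereas 8 leukaemias above it had a median of 0.075 and a maximum of 3.71, and all 8 were listed at 0 for Fcer1a. Levels within a pair were still correlated in leukaemia to differing degrees: over the 19 samples r on log2(FPKM + 1) was 0.67 for Epx and Prg2, 0.73 for Mcpt8 and Prss34 and 0.35 for Cpa3 and Ms4a2, against 0.97, 0.87 and 0.93 over the 30 normal samples, and these correlations are descriptions over samples that share groups.

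**Figure D4:**
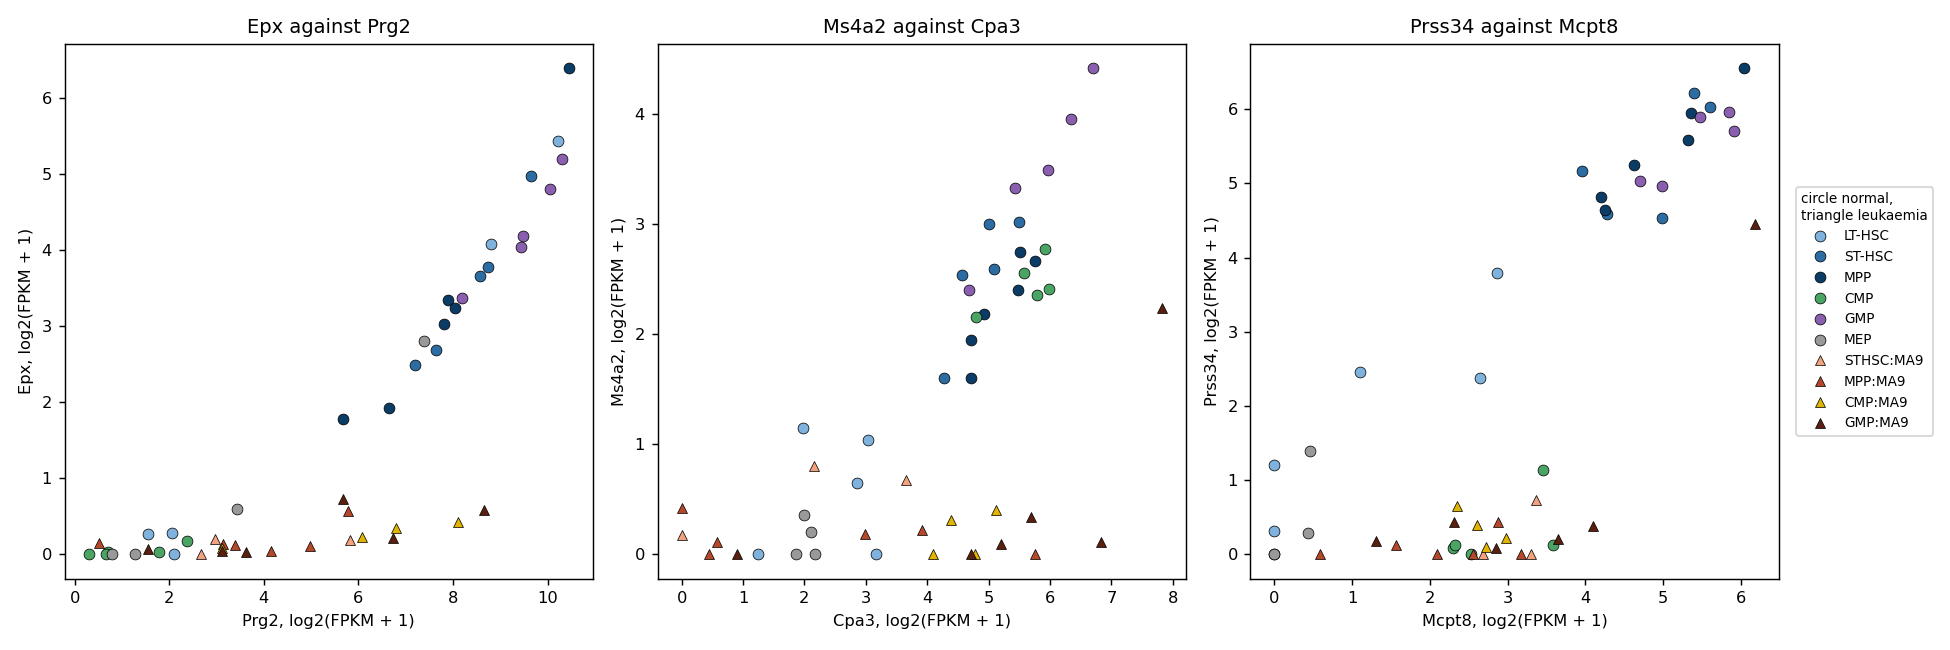
Each sample's Epx against Prg2, Ms4a2 against Cpa3 and Prss34 against Mcpt8, all as log2(FPKM + 1) (circles normal, triangles leukaemia, coloured by group). Normal samples rise along a common line for Epx and Prg2, and the leukaemias lie along the bottom, with GMP:MA9 replicate 5 the triangle that stands away from it for Prss34.

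The genes most like each member over the 30 normal samples were found by Pearson's r on log2(FPKM + 1), which is a description, since samples of a group share their population and some share granulocyte RNA. Epx was nearest to the eosinophil granule gene Prg3 (r = 0.98), then Prg2 (0.97) and the eosinophil ribonuclease Ear6 (0.93). Prss34 was nearest to Fcer1a (0.90), Mcpt8 (0.87) and Prg2 (0.85), and Fcer1a to Prss34, Mcpt8 (0.83) and Ccdc138 (0.80). Ms4a2 was nearest to Mgat5 (0.93) and then Cpa3 (0.93), and Cpa3 to Ms4a2, and both were also near Mpo, the myeloperoxidase of early granulocytic cells (Mpo 0.93 with Cpa3 and 0.91 with Ms4a2). Hdc was nearest to Igsf6 (0.97), Hvcn1 (0.97) and Clec12a (0.96), and Gzmb to Mcpt8 (0.85). The gene nearest to the mean of the members was Prg3 (0.89), followed by Arhgap15 (0.88) and Cxcr4 (0.88).

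Within groups, after removal of the group means, Epx and Prg2 still varied together over the 30 normal samples (r = 0.94), and so did Mcpt8 and Prss34 (r = 0.82), and over the 19 leukaemias the values were 0.66 and 0.70. Prg3, Ear1 and Ear6 followed Epx from mouse to mouse: MPP replicate 3 held 53.77, 134.17 and 117.35 FPKM of them against at most 9.03, 15.18 and 10.24 in the other MPP. In LT-HSC replicates 4 and 5 Ear1 was at 507.32 and 277.13 FPKM, and the eosinophil genes Alox15 (82.71 and 17.64) and Ccr3 (5.29 and 3.59) were present as well, against at most 1.31 and 0.09 in LT-HSC replicates 1 to 3. In MPP replicate 3 Ccr3 was at 0.11 and Alox15 at 1.64, inside the range of the other MPP. The Ear genes are close paralogues between which reads can be shared, so their single levels are uncertain.

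Of the eosinophil list, 9 genes were in the table and 6 were tested. Against GMP 4 of the 6 were lower in CMP (Prg3 -4.14, Ear1 -4.25, Ear6 -4.22 and Ear2 -3.68) and 0 higher, with a median of -3.91 against 0.20 over all genes, and 1 of the 6 was higher in MPP than in CMP (Prg3 by 2.95, adjusted p = 0.00564). Over all genes 3.31% were called lower in CMP than in GMP, and 2.83% higher in MPP than in CMP. Prg3 and Ear6 had means of 0.2 and 0.046 FPKM in CMP and passed the filter through other groups. In leukaemia 1 was higher and 4 lower in STHSC:MA9, 2 and 2 in MPP:MA9, 2 and 0 in CMP:MA9, and 0 and 3 in GMP:MA9, of the 6 tested. Over all genes the shares called higher in these 4 comparisons were 12.3%, 13.5%, 13% and 13.5%, and those called lower were 11.9%, 13.6%, 14.8% and 8.87%. Prg3 was lower in STHSC:MA9 (-1.90), MPP:MA9 (-1.70) and GMP:MA9 (-2.71) and higher in CMP:MA9 (1.52, adjusted p = 0.0482), as Prg2 was. Ear1 was lower in STHSC:MA9, MPP:MA9 and GMP:MA9, at group means of 0.37, 0.20 and 1.49 FPKM, whereas Ear2 had means of 24.4 to 47.9 FPKM in all 4 leukaemias and was called higher in CMP:MA9 (4.73, adjusted p = 2.23e-06) and MPP:MA9 (1.59, 0.0347).

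The signalling partners of the IgE receptor moved both ways. Of 6 in the table, 3 were higher and 2 lower in STHSC:MA9 and MPP:MA9, 4 higher and 2 lower in CMP:MA9, and 3 higher and 0 lower in GMP:MA9, beside the shares of all genes given above for the eosinophil list. The shared gamma chain Fcer1g, which also serves other Fc receptors, rose from group means of 104 to 323 FPKM in the 4 normal cells of origin to 821 to 1489 in leukaemia, by 2.83, 3.84, 3.00 and 1.72 in the order ST-HSC, MPP, CMP, GMP. Lyn, the kinase that starts signalling, rose in all 4 as well, to means of 116 to 121 FPKM. The adaptor Lat and the kinase Fyn were lower for ST-HSC, MPP and CMP origins, with differences of -3.34, -3.16 and -2.69 for Lat. Both were already low in normal GMP, at means of 0.65 and 2.80 FPKM, and neither was called there.

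Of 14 mast cell granule and mediator genes in the table only 4 passed the filter in the normal populations. Slc18a2, the transporter that loads histamine and other amines into granules, was lower in STHSC:MA9, MPP:MA9 and CMP:MA9 (-3.32, -2.35 and -2.76), with means of 1.92 to 2.28 FPKM there. Srgn, the serglycin core of granules, peaked in GMP at a mean of 1233 FPKM (2.26 above MEP, and -1.49 for CMP minus GMP) and was lower in GMP:MA9 (-1.32). Ltc4s, leukotriene C4 synthase, was higher in MPP than in CMP by 1.32, and was lower in STHSC:MA9 and MPP:MA9. Ndst2, which sulphates heparin, was lower in GMP than in MEP (-1.04). Of the 7 basophil genes only Alox5, arachidonate 5-lipoxygenase, was tested against normal cells, and it was higher in all 4 leukaemias, by 2.32 to 3.19. The eicosanoid enzyme is shared with granulocytes and monocytes. Among the leukaemias the basophil receptor Cd200r3 was tested as well, and it was lower in MPP:MA9 than in GMP:MA9 (-1.17, SE 0.29, adjusted p = 0.0108), at means of 0.208 and 2.00 FPKM.

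All 21 receptors and regulators of these lineages were tested. In STHSC:MA9 11 were higher and 7 lower, in MPP:MA9 9 and 5, in CMP:MA9 7 and 6, and in GMP:MA9 4 and 1, where the shares of all genes called higher and lower were 13.5% and 8.87% for GMP:MA9 and 12.3% to 13.5% and 11.9% to 14.8% for the other 3. Kit, the stem cell factor receptor on which mast cells depend and by which every normal population here was gated, was at group means of 57.2 to 110 FPKM in the 4 normal cells of origin and of 0.85 to 2.98 FPKM in the leukaemias, with differences of -5.48, -5.82, -5.87 and -4.17. Zfpm1 (FOG-1), a partner of GATA factors, was lower in STHSC:MA9, MPP:MA9 and CMP:MA9 (-4.89, -2.83 and -4.43) and was already at 0.82 FPKM in GMP. Gata1 had means of 52.0 FPKM in MEP, 23.4 in CMP, 16.6 in LT-HSC and 13.6 in ST-HSC, against 2.44 in MPP and 1.20 in GMP. It was at most 0.12 FPKM on average in each leukaemia group. The relation of Gata1 to the members was not tested. Gata2, named after its values were seen, was at means of 61.7, 35.6 and 73.3 FPKM in ST-HSC, MPP and CMP, at 10.9 in GMP and at 3.62 to 11.2 in leukaemia. The common beta chain Csf2rb of the IL-3, IL-5 and GM-CSF receptors was lowest in MEP (1.16 FPKM) and was higher in STHSC:MA9, MPP:MA9 and CMP:MA9, by 1.81, 1.99 and 2.10.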

How the data were processed

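RNA was measured in 49 samples, 1 mouse each, from amplified cDNA (NuGen Ovation). The authors estimated expression with RSEM and deposited FPKM values rounded to 2 decimals. The submitters' processing notes name RSEM and mm9, and the aligner and annotation are not given in the sources used here. The table had 68 columns of values, of which 49 carried the name of a labelled sample and 19 did not and were left out. Groups and replicate numbers came from the labels. Ensembl IDs were paired with symbols for 33068 of 38253 genes. Gene coordinates are those of GENCODE M1 on NCBIM37 (mm9), 1-based, and promoter coordinates those of RefSeq on GRCm38.p6.

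FPKM are not counts, so the study's edgeR test on counts was not rerun. Values were taken as log2(FPKM + 1), and the test was that of limma 3.58.1 with a mean-variance trend, two-sided, run under R 4.3.3 on genes whose mean reached 1 FPKM in the samples of a fit. There were 3 fits: 30 normal samples, 40 samples of the 4 leukaemia groups with their normal cells of origin, and 19 leukaemias. Beside the limits for calls given in the report, the F tests used an adjusted p below 0.05 alone. The functions were tested on simulated data. Other steps used Python 3.11.15.

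Alternatives were a pseudocount of 0.1, no filter, median-ratio scaling, a block for the replicate number, a fit of only the groups compared, calls with no limit on the fold, removal of a GC and length trend (values for 87.3% to 89.0% of tested genes), sample weights, LT-HSC and ST-HSC samples 4 and 5 left out, and each sample left out. Leaving ST-HSC samples 4 and 5 out of the leukaemia fit was added after seeing the data. Numbers were taken to pair samples where every same-numbered pair correlated above 0.1 in deviations from the group means. LT-HSC and ST-HSC met this in all 5 pairs (r = 0.142 to 0.683), but only 1 LT-HSC sample correlated best with its own number. Replicates 4 and 5 of both groups also shared high late granulocyte sums, so the pairing is uncertain. CMP against GMP met the limit in 4 of 5 pairs, although 5 CMP samples correlated best with their own number. No comparison besides LT-HSC against ST-HSC met it in all pairs. The labels do not say what a number stands for.

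The members and lists were chosen with earlier results of these data known. Named genes were all members, up to 4 called genes of a list with the largest change, and the nearest genes by correlation. Total reads were not part of the values, so depth is relative, estimated from 1767 low genes of which 45.3% of values lay within 0.1 (log2) of 1 read, and no counting interval could be given. Syk, Ptgds2, Ptgdr2, Ear3, Siglecf and Adgre1 of the lists matched no symbol.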

Additional observations from a re-analysis of the deposited data

Results flagged for a closer look

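Some samples lay far from the others of their group on the log2(FPKM + 1) scale by Dixon's test, 11 of 81 groups of a gene. No rate by chance is set beside this count. Several groups held tied zeros, where a single value above 0 is flagged whatever its size. The high values were those of GMP:MA9 replicate 5 for Prss34 (20.92 FPKM) and Ms4a2 (3.71), of MPP:MA9 replicate 6 for Gzmb (20.24) and of MPP replicate 3 for Epx (82.74). The other 7 were small values in groups near 0. They were CMP replicate 1 for Prss34 (1.2 FPKM), CMP replicate 5 for Epx (0.13), MPP:MA9 replicate 3 for Prss34 (0.36) and Epx (0.49), CMP:MA9 replicate 2 for Gzmb (0.12), GMP:MA9 replicate 5 for Gzmb (0.27) and GMP:MA9 replicate 2 for Fcer1a (0.33).

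By limma's F test, the 4 origins differed in how far leukaemia and normal cell lay apart for Prss34 (adjusted p = 4.51e-07), Prg2 (3.61e-06), Epx (3.95e-05), Fcer1a (0.00139), Hdc (0.0044) and Mcpt8 (0.0378). Prg2 was the only one of the 6 with called changes of opposite sign, lower for 3 origins and higher for CMP. It was at 0.23 to 4.21 FPKM in normal CMP and at least 50.11 in normal ST-HSC, MPP and GMP. Among the 4 leukaemias Prg2 did not pass limma's F test (adjusted p = 0.445). Both Prg2 and the late granulocyte genes were higher in CMP:MA9 than in CMP, and their relation was not tested. Normal CMP were at most 1.2, 0.13 and 1.28 FPKM for Prss34, Epx and Fcer1a, which left no room for a large fall there, so for these 3 the F test describes that floor.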

How the results depend on the processing

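Of 58 calls of a member in a comparison, 48 held in every setting run for that comparison, 10 were lost in at least 1, and 0 changed sign. Another 17 were gained in at least 1 setting. Of 51 member comparisons called in no setting, 21 changed sign in at least 1. For pairs of leukaemias, where 0 members were called, sample weights called 1 for STHSC:MA9 against CMP:MA9 (Hdc), 2 for STHSC:MA9 against GMP:MA9 (Hdc and Cpa3) and 1 for MPP:MA9 against GMP:MA9 (Cpa3), the F test among the 4 leukaemias passed for 2 members with sample weights, a pseudocount of 0.1 called 1 for MPP:MA9 against GMP:MA9 (Gzmb), and a fit of only the groups compared called 1 for STHSC:MA9 against MPP:MA9 (Hdc). The cause was not tested. Leaving out 1 sample gave 0 to 2 members for MPP:MA9 against GMP:MA9 and 5 to 8 for STHSC:MA9 against ST-HSC, with fewer samples behind each. For LT-HSC against ST-HSC the count was 4 with sample weights and with only the groups compared (Fcer1a and Gzmb lost), 5 with the replicate block, and 9 without samples 4 and 5 of both groups. In the other comparisons the replicate block changed no call, and the numbers were not taken to pair the samples there. With a pseudocount of 0.1, CMP against GMP had 5 called (Hdc and Ms4a2 lost) and MPP against CMP 4 (Mcpt8 lost, adjusted p = 0.0535). Median-ratio scaling moved the median of all genes by -0.19 for CMP against GMP and by 0.15 for CMP:MA9 against CMP, and changed no call of a member there.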
